A study of Homo sapiens with 9 samples.

Results

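The distal ends of chromosome arms 4q and 10q held 223 of the 19861 p300 peaks deposited for the series, 138 at 4q and 85 at 10q. They were chosen by position in hg19: every peak on chromosome 4 with its midpoint at 190 Mb or beyond, and every peak on chromosome 10 with its midpoint at 135.4 Mb or beyond. The ends had come to notice because earlier results of the same lists showed clustered, recurrent peaks there. That clustering and recurrence is therefore given below as a description, without a test. At 4q the first peak inside was 521 kb beyond the limit, at percentile 0.223 of the scores of treated list 1, and the last peak outside was 1465 kb short of it, at percentile 71.3 of treated list 2. At 10q the first peak inside lay 70.8 kb beyond the limit, at percentile 45.4 of untreated list 1 and a short way before the clustered peaks, and the last one outside lay 52.1 kb short of it, at percentile 50.6 of treated list 2.

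All lists come from PC3, a line established from a human prostate cancer metastasis. The treated cells were kept for 24 h in 30 µM MnTE-2-PyP, a manganese-based compound with superoxide dismutase activity, and the untreated cells were not. Treated and untreated cells alike received 20 Gy of radiation and were fixed with 1% formaldehyde after 1 h, so no unirradiated cells enter any comparison. p300, a histone acetyltransferase and transcriptional coactivator, was immunoprecipitated from 3 treated and 2 untreated cultures that the design text calls biological replicates, with 1 peak list each. The treated lists held 4922, 10059 and 528 peaks and the untreated lists 2313 and 2039. The 4 input libraries were not analysed here. Read depth is unknown, so p300 binding and library yield cannot be told apart in how many peaks a list has.

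The ends of 4q and 10q are known to carry D4Z4, a GC-rich macrosatellite made of tandem copies of a unit of about 3.3 kb. Each unit holds a copy of the reading frame of DUX4, a double-homeobox transcription factor of early embryos. The repeat is normally packed as repressed, methylated chromatin, and shortening of the 4q array with loss of that repression underlies facioscapulohumeral muscular dystrophy. The 10q array is a close copy without the sequence that stabilises the DUX4 transcript. DUX4 protein is known to recruit p300 through its C-terminal part. In the RefSeq gene table (GRCh38.p14) the genes at the end of 4q run from DUX4L9, a partial copy of the unit also called DUX4C, through FRG2 and the noncoding gene DBET to DUX4L8, DUX4L7, DUX4L6, DUX4L5, DUX4L4, DUX4L1, DUX4L3, DUX4L2 and DUX4. Those at the end of 10q run from FRG2B through copies that include DUX4L25 to DUX4L20 and DUX4L10 to DUX4L15. These names serve only for gene order: the lists are on hg19, and no hg19 genome or annotation was used, so no peak was assigned to a gene.

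A pair of RefSeq promoters, 250 bases before to 50 after the gene start, shows what kind of sequence lies there. They are written 5′ to 3′ on the strand of the gene, with CG dinucleotides, the sites of DNA methylation, in capitals. DUX4 (chromosome 4, plus strand) stands for the repeat itself, and FRG2 (chromosome 4, minus strand) for the sequence between the repeat and the rest of the arm.
DUX4: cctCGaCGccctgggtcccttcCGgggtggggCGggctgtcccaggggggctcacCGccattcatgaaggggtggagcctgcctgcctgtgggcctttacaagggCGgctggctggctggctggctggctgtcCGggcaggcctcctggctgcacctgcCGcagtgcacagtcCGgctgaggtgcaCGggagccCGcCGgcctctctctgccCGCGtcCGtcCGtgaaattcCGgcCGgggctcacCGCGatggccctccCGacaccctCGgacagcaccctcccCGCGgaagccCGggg
FRG2: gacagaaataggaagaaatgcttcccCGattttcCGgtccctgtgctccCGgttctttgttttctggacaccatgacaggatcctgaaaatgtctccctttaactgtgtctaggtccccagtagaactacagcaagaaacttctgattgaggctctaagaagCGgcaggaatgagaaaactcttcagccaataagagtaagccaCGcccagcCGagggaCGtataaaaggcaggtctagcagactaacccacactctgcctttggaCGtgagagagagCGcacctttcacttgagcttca
The DUX4 promoter held 25 CG dinucleotides and 73.3% G or C. As many or more CG dinucleotides were found in 31.8% of the 27305 promoters of the table, whose medians were 14 CG dinucleotides and 58.3% G or C. The promoter of FRG2B, the 10q counterpart of FRG2, was identical to that of FRG2 over 299 bases in a row. A short read from such a stretch fits 4q and 10q equally well. How reads that fit several places were treated is not given in the sources used here, so peaks in neighbouring units, and peaks at the 4q and 10q ends, may rest on the same fragments.

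The number of peaks at the ends varied little beside the lengths of the lists. The treated lists held 36, 29 and 21 peaks at 4q and 22, 17 and 14 at 10q, and the untreated lists held 34 and 18 at 4q and 18 and 14 at 10q. Every list thus had more peaks at 4q than at 10q, and the treated and untreated lists overlapped at each end. The clustered stretch described below is also longer at 4q in hg19, 27.3 kb against 17.3 kb at 10q. These counts therefore do not show denser peaks at 4q. Over both ends the lists differed up to 1.81-fold, from 58 peaks in treated list 1 to 32 in untreated list 2, while the whole lists differed up to 19.1-fold. Treated lists averaged 46.3 ± 11.5 peaks at the ends (SD, n = 3) and untreated lists 42 ± 14.1 (SD, n = 2), which differed by less than the spread within either group (exact two-sided permutation p = 0.8, where 0.2 is the smallest the 10 splits allow).

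As a share of the list, the ends made up 1.18%, 0.457% and 6.63% of the treated lists (95% Wilson intervals, for counting error only, of 0.913 to 1.52%, 0.343 to 0.609% and 4.80 to 9.08%). They made up 2.25% and 1.57% of the untreated lists (1.72 to 2.94% and 1.11 to 2.21%). The highest and the lowest share both belonged to treated lists, the shortest and the longest of the series. The treated mean was 0.85 percentage points above the untreated mean (exact permutation p = 1.0), and without treated list 3 the difference was -1.09 points. Peak names show that treated list 1 and untreated list 1 share a tag, as do treated list 3 and untreated list 2. Within these pairs the treated minus untreated difference was -1.07 points in the first and 5.06 points in the second. With 1 list a group, neither pair could be tested.

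**Figure D1:**
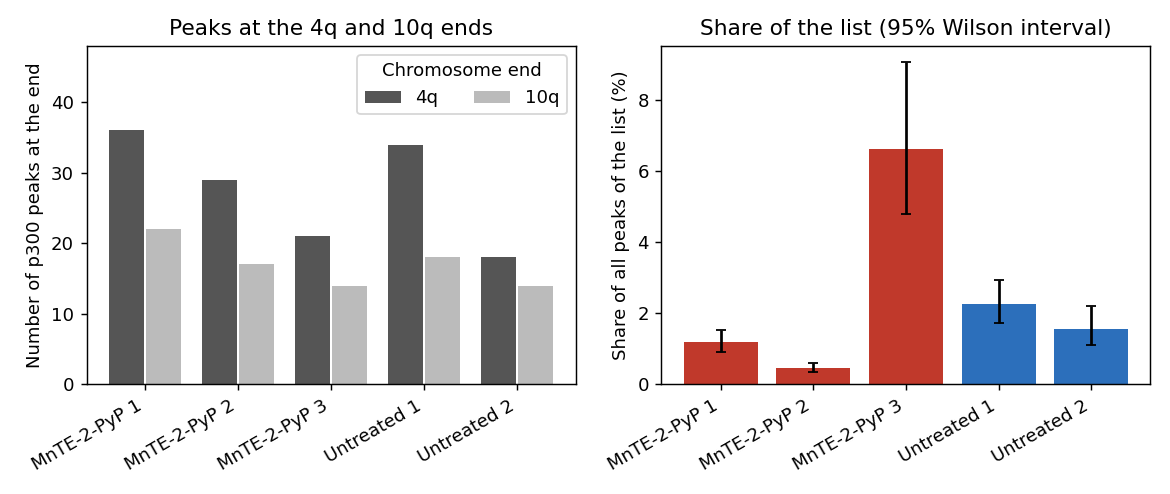
Left, number of p300 peaks at the 4q and 10q ends in each list. Right, both ends together as a percentage of all peaks of the list, with 95% Wilson intervals. Every list had more peaks at 4q, where the clustered stretch is longer in hg19, and treated list 3 had the highest share at 6.63%.

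At both ends most peaks stood in an unbroken run. The run was taken as the longest stretch in which no gap between peak midpoints, over all lists, exceeded 1 unit of 3.3 kb. At 4q it spanned 27.3 kb (chr4:190986619-191013902, 8.27 units) and held 118 of the 138 peaks, or 85.5%. At 10q it spanned 17.3 kb (chr10:135477889-135495206, 5.25 units) and held 72 of the 85 peaks, or 84.7%. These lengths are distances in hg19, and the number of repeat copies in the PC3 cells was not measured. The last peak at each end was the last of its run, so no list had a peak between the run and the telomere. Before the runs lay 20 peaks at 4q and 13 at 10q.

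Neighbouring peaks were closer than a unit. The median spacing between neighbouring midpoints of a list, up to 20 kb, was 930, 1202 and 1260 bp in the treated lists and 1088 and 1372 bp in the untreated lists. Over all lists, 106 of 121 spacings at 4q and 69 of 80 at 10q were between 500 and 2000 bp. None of these spacings lay within 10% of 1 unit. The share of neighbouring spacings within 10% of any whole multiple of the unit was accordingly low, at 1.89%, 2.50% and 0% in the treated lists and 2.13% and 0% in the untreated lists. Among all other peaks of these lists it was 14.6%, 16.5% and 11.9% in the treated and 9.56% and 16.4% in the untreated lists. The treated and untreated means at the ends, 1.46% ± 1.30 (SD, n = 3) and 1.06% ± 1.5 (SD, n = 2), differed by less than their spread (exact permutation p = 1.0). The difference, 0.40 percentage points, was -0.12 points without treated list 2 and -0.67 points without untreated list 2. Each share above 0% at the ends came from a single spacing, which began before the 4q run.

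The unit appeared between peaks that were not neighbours. A peak with another peak of its own list at 3.3 kb, within 10% and on either side, made up 75.9%, 71.7% and 77.1% of the peaks at the ends in the treated lists. In the untreated lists these were 82.7% and 75.0%. All other peaks of the same lists reached 8.49%, 4.01% and 8.92% in the treated and 5.09% and 2.14% in the untreated lists. Peaks are denser at the ends than elsewhere, which raises this share at any distance. The largest other cluster of recurrent regions, on chromosome 8, held 15 regions found in all lists, as many as 4q. Its share was 39.5%, 9.09% and 31.2% in the treated and 25% and 0% in the untreated lists, over 38, 22, 32, 32 and 20 peaks in the same order of lists. Every list thus had a higher share at the chromosome ends than in that cluster. The cluster spans 114 kb and is sparser than the ends in every list. Its median spacing was 2058.5, 5840.5 and 2010.5 bp in the treated lists and 2469.5 and 6732 bp in the untreated lists. It therefore does not match the density of the ends, and the part of density in the difference was not tested. The treated mean at the ends was 74.9% ± 2.82 (SD, n = 3) and the untreated mean 78.8% ± 5.44 (SD, n = 2), a difference of -3.93 percentage points (exact permutation p = 0.6). Over all pairs of peaks up to 20 kb apart the contrast with other peaks was smaller. Pairs within 10% of any whole multiple of the unit made up 23.9%, 24.7% and 28.8% at the ends in the treated lists. In the untreated lists these were 27.1% and 27.6%. Among all other peaks they were 19.1%, 19.1% and 20.0% in the treated and 17.3% and 20.5% in the untreated lists.

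Read over a range of distances, with a window of 5% of the unit on either side, the share at 4q had its highest values near whole multiples. It was 72.2% at 3.30 kb, 76.7% at 6.65 kb and 71.0% at 9.95 kb, as means over the 5 lists. At 10q the highest values near the first and second multiples were 59.0% at 3.40 kb, against 47.2% at 3.30 kb itself, and 72.2% at 6.55 kb. Near the third multiple, 9.9 kb, the 10q share was 46.1%. Away from the multiples the 10q share reached 60.2% at 0.8 kb and 50.7% at 8.25 kb. At 10q only the second multiple thus stood above the other distances. The cluster on chromosome 8 was at 13.5%, 10.4% and 10.2% at these multiples, and all other peaks were at 2.89%, 2.77% and 2.26%. Away from the multiples the cluster reached 36.9% at 1.3 kb, its highest value, and 29.3% at 9.35 kb.

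**Figure D2:**
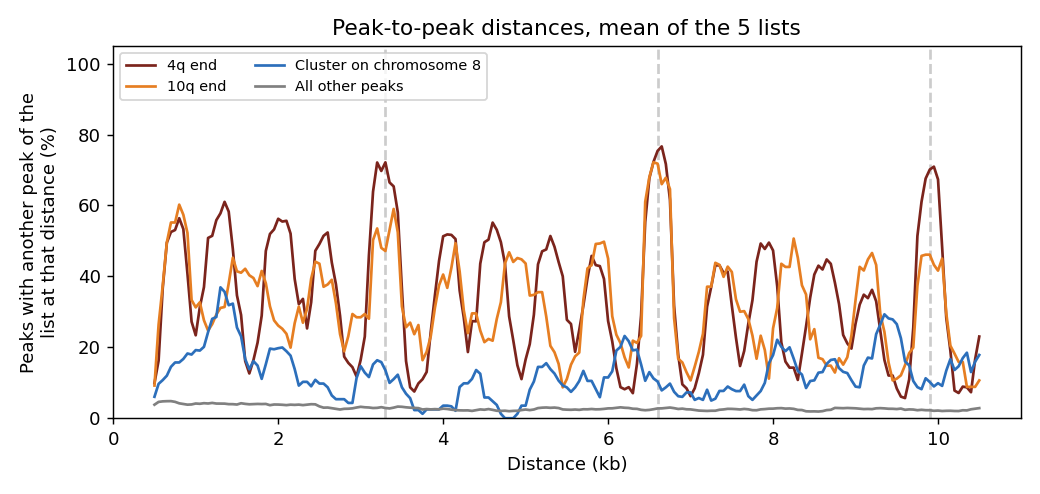
Percentage of peaks with another peak of the same list at a given distance in kb, on either side, as a mean over the 5 lists. Dashed lines mark whole multiples of 3.3 kb. The 4q curve stands highest at these lines, at 72.2% for the first, and all other peaks of the lists are at 2.89% there.

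The peaks of each run were then folded onto a single unit, with the length that drew the midpoints together most. That length, sought within 10% of 3.3 kb, was 3291 bp at 4q and 3297 bp at 10q. Within the folded unit the midpoints gathered at 3 positions. The number 3 was set after the folded data were seen. Counted from the end of the longest stretch without a midpoint, they stood at 76, 844 and 2036 bp at 4q and at 142, 883 and 1726 bp at 10q. At 4q 104 of 118 midpoints, 88.1%, lay within 200 bp of one of them, and at 10q 59 of 72, 81.9%. The step from the first to the second position was similar at the ends, 768 bp at 4q and 741 bp at 10q. The step from the second to the third was 1192 bp at 4q and 843 bp at 10q. The third position was the least sharp, with a median distance of midpoints from it of 69.0 bp at 4q and 115 bp at 10q. This compares with 22.5 bp at 4q and 9.50 bp at 10q for the first, and with 46.8 bp at 4q and 26.5 bp at 10q for the second.

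The remaining part of the unit carried no midpoint in any list. This stretch was 1030 bp long at 4q and 1028 bp at 10q, 31.3% and 31.2% of the unit. Peaks reached into it only in part. At 4q they covered 20.4%, 25.4% and 10.5% of its bases in the treated lists and 12.6% and 11.0% in the untreated lists, against 57.1%, 71.0%, 28.2%, 48.3% and 45.5% of the rest of the run in the same order. At 10q coverage of the stretch was 12.3%, 22.6% and 1.34% in the treated and 7.37% and 9.71% in the untreated lists, against 66.6%, 81.4%, 35.6%, 64.5% and 63.8% of the rest. The stretch was less covered than the rest of the unit at each end in all 5 lists. The fold was chosen on these peaks, so this is a description without a test. Whether reads can be placed in that stretch was not tested.

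**Figure D3:**
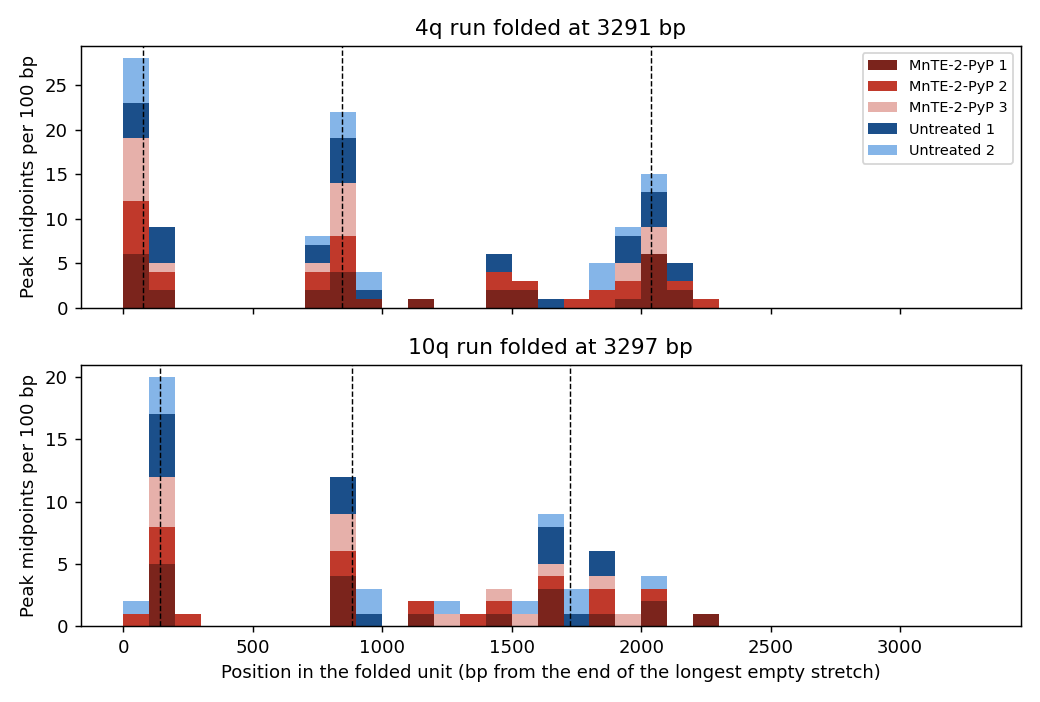
Midpoints of the peaks of the 4q run (top, 118 peaks) and the 10q run (bottom, 72 peaks) folded at 3291 and 3297 bp, in bins of 100 bp, stacked by list. Dashed lines mark the 3 positions. No midpoint of any list falls in the last 1030 bp of the 4q unit or the last 1028 bp of the 10q unit.

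The folded positions give 25 sites in the 4q run and 16 in the 10q run. A site counted as covered only where a peak spanned its exact base. At 4q the treated lists covered 25, 24 and 20 of the 25 sites and the untreated lists 25 and 17. At 10q the treated lists covered 14, 15 and 9 of the 16 sites and the untreated lists 15 and 11. Over both ends these were 95.1%, 95.1% and 70.7% in the treated and 97.6% and 68.3% in the untreated lists. The lists with few sites, treated list 3 and untreated list 2, share a tag in their peak names and belong to different groups. The treated mean was 87.0% ± 14.1 (SD, n = 3) and the untreated mean 82.9% ± 20.7 (SD, n = 2), which differed by less than the spread within either group (exact permutation p = 1.0). All 5 lists covered 15 of the 25 sites at 4q and 7 of the 16 at 10q, and each of the 41 sites was covered in at least 1 list. Treated list 1, treated list 2 and untreated list 1 each covered the same 24 of the 25 sites at 4q and the same 13 of the 16 at 10q. Peaks of the run that covered no site were 4 of 29, 2 of 24 and 0 of 20 in the treated lists at 4q. They were 3 of 28 and 0 of 17 in the untreated lists. At 10q they were 4 of 18, 1 of 14 and 4 of 13 in the treated lists. The untreated lists had 0 of 15 and 2 of 12 there. The 10q sites at 135490705 and 135491548 were covered in 2 and 1 lists, though a region of overlapping peaks from all 5 spans both. An uncovered site can thus have a peak beside it.

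**Figure D4:**
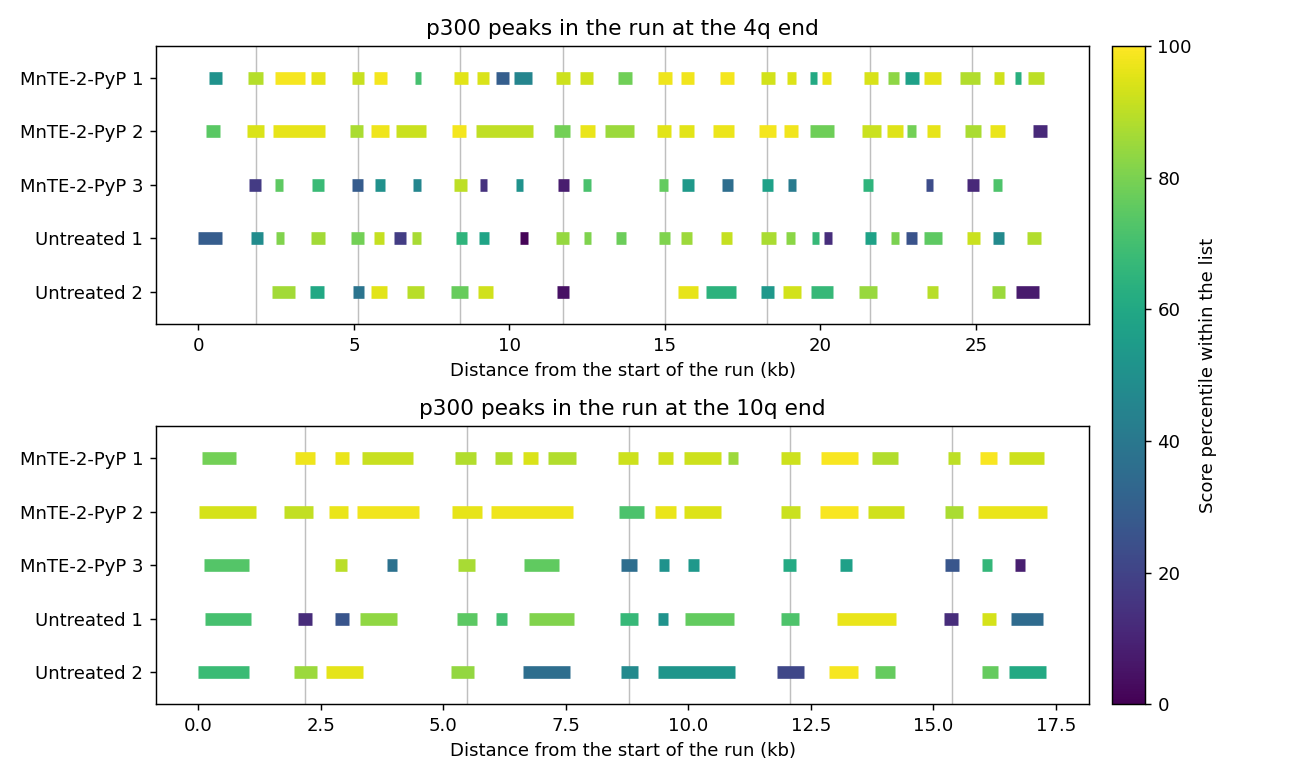
p300 peaks of each list along the 4q run (top) and the 10q run (bottom), drawn to scale as distance in kb from the start of the run and coloured by the percentile of the peak's score within its list. Grey lines mark the first of the 3 folded positions in each unit. Treated list 3 and untreated list 2 cover fewer of the sites, and single peaks of treated list 2 span adjacent sites.

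Peaks at the ends recurred between lists far more than other peaks, which is how the ends had come to notice. Overlapping peaks, by 1 bp or more, were merged across the lists, giving 53 regions at the ends, 37 at 4q and 16 at 10q. Of these, 24 were in all 5 lists, 15 at 4q and 9 at 10q, beside 0.886% of all 16701 regions of the series. A further 9 were in 4 lists, 6 in 3, 4 in 2 and 10 in 1. Outside the ends 10.2% of 16648 regions were in 2 or more lists. The 10 regions in a single list were mostly at 4q, 9 of them, all before the run. By group 6 of the 10 were in a treated and 4 in an untreated list.

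No region at the ends was in every list of 1 group and no list of the other. Of the 53 regions, 0 were in all 3 treated and no untreated list, which allows a share of up to 5.66%, beside 0.24% of all regions. Likewise 0 were in both untreated and no treated list, beside 0.186% of all regions. At such low backgrounds a count of 0 among 53 regions is no result about the ends. When untreated list 1 was left out, 6 regions were in all 3 treated lists and not in the remaining untreated list 2. When untreated list 2 was left out, 4 were in untreated list 1 and in no treated list.

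Lists of the same and of different groups shared their peaks at the ends. All 35 peaks of treated list 3 overlapped peaks of treated list 1, of treated list 2 and of untreated list 1, and 27 of them, 77.1%, overlapped peaks of untreated list 2. In turn these overlapped 62.1% of the peaks of treated list 1, 69.6% of treated list 2, 67.3% of untreated list 1 and 81.2% of untreated list 2. Treated lists 1 and 2 shared 86.2% of the first and 93.5% of the second. Untreated lists 1 and 2 shared 61.5% of the first and 93.8% of the second. Treated list 1 and untreated list 1 shared 84.5% of the treated and 88.5% of the untreated peaks. Over all pairs of lists and both directions the median was 87.3%, with a range of 61.5 to 100%, against a median of 15.2% and a range of 3.26 to 72.0% for all other peaks.

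Peak scores, whose scale the sources do not name, were read only as percentiles within a list. In 4 of the 5 lists peaks at the ends stood in the upper part. The median percentile was 91.2, 94.7 and 53.8 in the treated lists and 73.8 and 76.7 in the untreated lists, while the other peaks of these lists had medians of 49.6, 50.6, 49.4, 49.5 and 49.5. Peaks above the 90th percentile made up 31 of 58, 33 of 46 and 1 of 35 in the treated lists and 5 of 52 and 6 of 32 in the untreated lists. Treated lists 1 and 2 thus stood above both untreated lists and treated list 3 below them. The treated mean of the medians was 79.9 ± 22.7 (SD, n = 3) and the untreated mean 75.3 ± 2.04 (SD, n = 2), a difference of 4.62 points (exact permutation p = 1.0). Without treated list 1 the difference was -1.04 points, and without treated list 2 it was -2.78 points. In the pairs with a shared tag the treated minus untreated difference was 17.4 points in the first and -22.9 points in the second. A percentile depends on what else a list holds, and treated list 3 holds 528 peaks in all. In the recurrent cluster on chromosome 8 the median percentile was 92.6, 96.7 and 49.1 in the treated lists. It was 72.2 and 84.4 in the untreated lists, so a high rank was not particular to the ends.

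Peaks at the ends were wider than the other peaks of the same list. The median width was 413, 504 and 287 bp in the treated lists, where the other peaks had 233, 322 and 242 bp. It was 340 and 542 bp in the untreated lists, where the other peaks had 234 and 374 bp. The ratio was 1.77, 1.57 and 1.19 in the treated and 1.45 and 1.45 in the untreated lists, above 1 in all 5. The cluster on chromosome 8 had wider medians, 452, 1062 and 354 bp in the treated and 426 and 804.5 bp in the untreated lists. Greater width was thus not particular to the ends. The widest peak at the ends was 1046, 1837 and 1082 bp in the treated and 1215 and 1554 bp in the untreated lists. The closest folded positions lie 741 bp apart, and 2 peaks of treated list 2 at 4q, 2 of that list at 10q and 1 of untreated list 2 at 10q covered 2 sites each. The treated mean of the medians was 402 ± 109 bp (SD, n = 3) and the untreated mean 441 ± 143 bp (SD, n = 2), a difference of -39.2 bp (exact permutation p = 0.8). It became 18.0 bp without treated list 3 and 62.0 bp without untreated list 2. In the pairs with a shared tag the treated minus untreated difference was 73.5 bp in the first and -255 bp in the second. Relative to the other peaks of the list the log2 ratio of widths was 0.57 ± 0.30 (SD, n = 3) in treated and 0.54 ± 0.0012 (SD, n = 2) in untreated lists (exact permutation p = 1.0). That difference, 0.037, was -0.089 without treated list 1 and -0.00015 without treated list 2.

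**Figure D5:**
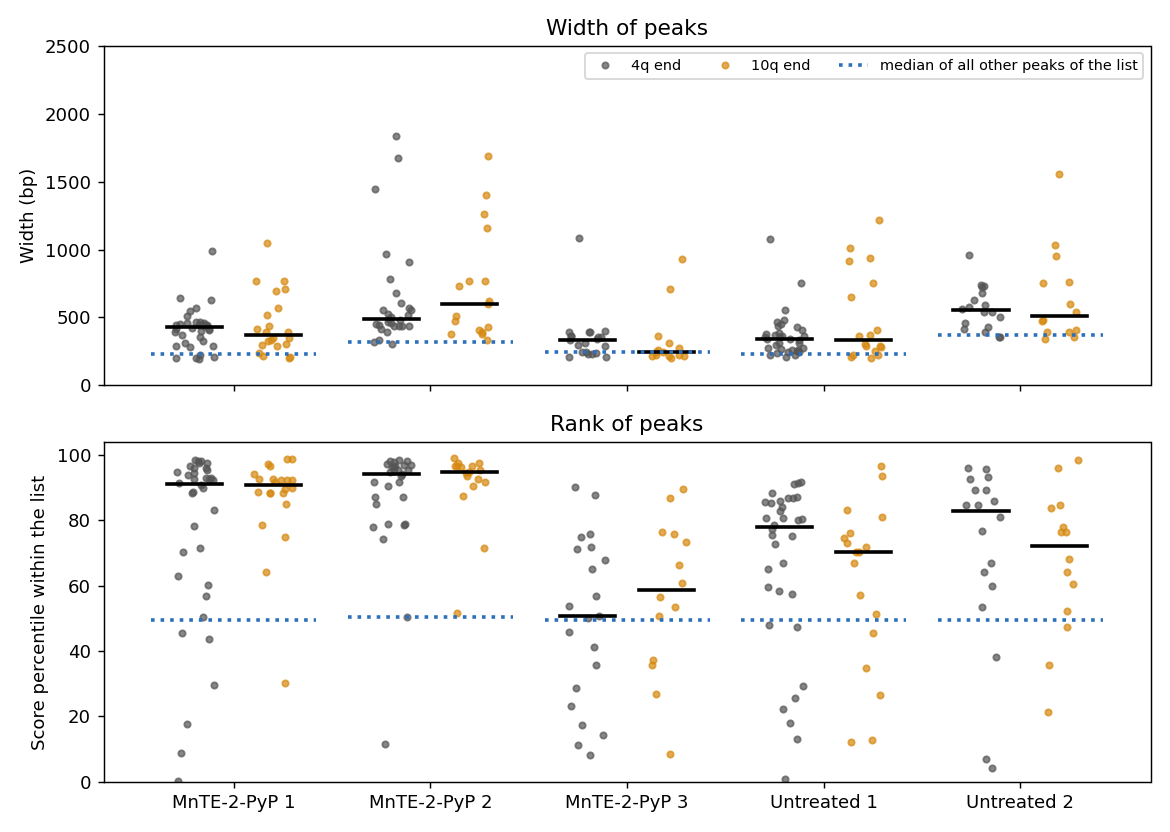
Width in bp (top) and score percentile within the list (bottom) of each peak at the 4q and 10q ends, by list. Black bars are medians, and dotted blue lines are the medians of all other peaks of the list. Median widths at both ends together lie above the dotted line in all 5 lists, and treated lists 1 and 2 have the highest median percentiles, at 91.2 and 94.7.

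The ends themselves were compared within each list. The median percentile was 91.2, 94.2 and 50.8 at 4q and 90.8, 94.7 and 58.6 at 10q in the treated lists, and 78.0 and 82.8 at 4q and 70.3 and 72.2 at 10q in the untreated lists. The difference, 4q minus 10q, was 0.39, -0.54 and -7.86 points in the treated and 7.74 and 10.6 points in the untreated lists. Over all lists it averaged 2.06 ± 7.29 points (SD, n = 5), higher at 4q in 3 of 5 lists, and the exact two-sided permutation test that swaps the ends gave p = 0.625, where 0.0625 is the smallest possible. Without untreated list 2 the mean was -0.068 points. The untreated lists stood above all treated lists in this difference. The test of that contrast between groups gave -11.8 points with an exact permutation p = 0.2, the smallest the design allows. The same contrast was -12.4 bp for width and 0.76 percentage points for the spacing share, and neither reached the smallest p.

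Width differed by less than the spread between lists. The medians were 427, 487 and 337 bp at 4q and 373, 600.0 and 244 bp at 10q in the treated lists, and 340 and 552 bp at 4q and 332 and 512 bp at 10q in the untreated lists. The 4q peaks were wider in 4 of 5 lists, by 16.3 ± 78.5 bp on average (SD, n = 5, exact permutation p = 0.6875), with treated list 2 the exception at -113 bp. Without treated list 3 the mean difference was -2.88 bp. Wide peaks of 700 bp or more were 1, 6 and 1 of the 4q peaks in the treated lists and 2 and 4 in the untreated lists. At 10q they were 4, 7 and 2 in the treated and 5 and 5 in the untreated lists, a larger number from fewer peaks in every list. The share of peaks with a partner 1 unit away was 75.0%, 72.4% and 81.0% at 4q and 77.3%, 70.6% and 71.4% at 10q in the treated lists, and 79.4% and 88.9% at 4q and 88.9% and 57.1% at 10q in the untreated lists. It averaged 6.27 ± 15.8 points more at 4q (SD, n = 5, exact permutation p = 0.5625). The share of neighbouring spacings near a whole multiple of the unit averaged 2.12 ± 1.98 points more at 4q (SD, n = 5), higher there in 3 of 5 lists (exact permutation p = 0.25). In those lists the 4q share was a single spacing, out of 32, 24 and 30 in treated lists 1 and 2 and untreated list 1. Each of these spacings began before the run, so the difference does not describe spacing within it. The share of folded sites covered averaged 8.80 ± 9.72 points more at 4q (SD, n = 5), higher there in 4 of 5 lists (exact permutation p = 0.125). The sites were derived from these same peaks, separately at each end, so that test cannot show fewer occupied places at 10q. With 5 comparisons of the ends, the lowest adjusted p was 0.625 (Benjamini-Hochberg).

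Width and score rank were also compared between the 3 folded positions, with each peak of the run counted at its nearest position. Every peak that covered 2 sites, from 1400 to 1837 bp wide, was thereby counted at the third position and not at the second. These peaks belong to treated list 2 at both ends and to untreated list 2 at 10q. At 4q the median width was 454, 522 and 358 bp at the first position in the treated and 393 and 431 bp in the untreated lists. At the second it was 400, 482 and 243 bp in the treated and 316 and 560 bp in the untreated lists, and at the third 436, 780 and 232 bp in the treated and 338 and 644 bp in the untreated lists. At 10q the third position had the widest median in 4 of 5 lists. Its medians were 632, 1210 and 217 bp in the treated and 930 and 952 bp in the untreated lists. The first position at 10q was 395, 507 and 293 bp wide in the treated and 361 and 480 bp in the untreated lists. The third was thus the wider in 4 of 5 lists, by 381 ± 307 bp on average (SD, n = 5, exact permutation p = 0.125), with treated list 3 the exception. The way peaks were counted adds width to the third position, and its part in this difference was not tested. At 4q the third position ranked below the second in 5 of 5 lists, with a mean difference of -12.2 ± 9.51 percentile points (SD, n = 5, exact permutation p = 0.0625, the smallest possible). Over the 8 comparisons of positions the lowest adjusted p was 0.25 (Benjamini-Hochberg).

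At 4q the recurrent region with the highest mean percentile was not in the run. It lay at chr4:190942652-190944130, 42.5 kb before the run, and was 1479 bp wide. Its percentile was 92.6, 98.4 and 87.7 in the treated lists and 86.8 and 81.0 in the untreated lists, high in every list, treated list 3 included, and it held the highest 4q score of treated list 2. It was the only 1 of the 13 regions before the 4q run that was found in all lists. A partial, inverted copy of the unit with DUX4L9 is known to lie before the 4q array, with FRG2 next to it in the gene order above. Whether the region is that copy was not tested, for want of an hg19 annotation.

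Within the 4q run the leading recurrent regions were chr4:190988997-190990704, 1708 bp wide, with percentiles of 98.7, 96.4 and 75.0 in the treated and 86.1 and 86.1 in the untreated lists. It joined peaks at the second and the third position of a unit. Next was chr4:190992156-190992749, 594 bp wide, with 98.3, 97.3 and 50.2 in the treated and 91.3 and 95.7 in the untreated lists. It was followed by chr4:191002054-191002682, 629 bp wide, with 97.7, 95.3 and 53.8 in the treated and 85.3 and 96.2 in the untreated lists. These last regions stand at the second position, 3 units apart, and the last of them held the highest 4q score of untreated list 2. The region chr4:190994745-190995301, 557 bp wide, held the highest 4q score of treated list 3, at percentile 90.2, and stood at 95.4 and 98.3 in treated lists 1 and 2 and at 65.2 and 76.9 in the untreated lists. The other 7 regions named at 4q had mean percentiles from 76.9 to 82.0, with widths from 487 to 1837 bp. The highest 4q score of untreated list 1, at percentile 91.9, was at chr4:191011325-191011758.

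At 10q the leading region was chr10:135480497-135482391, 1895 bp wide, with percentiles of 96.7, 97.7 and 89.8 in the treated and 83.2 and 96.0 in the untreated lists. It held the highest 10q score of treated list 3. The region chr10:135490573-135492287, 1715 bp wide, had 98.8, 99.0 and 56.4 in the treated and 96.8 and 98.6 in the untreated lists. It held the highest 10q score of treated list 2 and of both untreated lists. In treated list 1 the highest 10q score was at chr10:135493846-135494182, at percentile 99.0. The top peaks of treated lists 1 and 3 had their midpoints close to the second folded position, and that of untreated list 1 close to the third. Those of treated list 2 and untreated list 2 lay more than 200 bp beyond the second. The remaining recurrent 10q regions had mean percentiles from 62.8 to 86.4. The lowest was chr10:135486454-135486979, at a first position, with 92.5, 71.5 and 35.8 in the treated and 67.0 and 47.5 in the untreated lists. The first 10q region, chr10:135470704-135470908, was in untreated list 1 alone, and the 5 regions before the 10q run reached at most 4 lists.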

How the data were processed

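p300 ChIP-seq peak lists of 3 treated and 2 untreated PC3 cultures were used, 1 list per library. Peaks were called with MACS2 on hg19, per the submitters' processing notes. The aligner, versions, threshold, input pairing and treatment of reads with several placements were not given in the sources used here. The deposited lists, which have no header, give for each peak its position and a score on an unnamed scale, used only as a percentile (share of the list's peaks with a score at or below it). From these, peaks at the 4q and 10q ends were selected by midpoint, and widths, spacings up to 20 kb, overlaps of 1 bp or more and folded positions (lengths within 10% of 3.3 kb, 4 harmonics, density bandwidth 100 bp) were computed. Coordinates count from 1.

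Groups were compared over lists by exact two-sided permutation (10 splits), chromosome ends and positions by swapping within lists (32 patterns). All 8 adjusted p for treatment were 1.0 (Benjamini-Hochberg). Tests of treatment on the differences between ends were not among these 8 and were not adjusted. Lists that share only a replicate number were not treated as pairs. The members and measures were chosen with earlier results of these data known. Partner shares, folding, sites, comparisons of positions and pairing by name tag were added after seeing the peaks. Named regions were up to 12 per end found in all 5 lists, by mean percentile, with the top peak of each list and the outermost peaks. The counting and folding were tested on simulated data. Promoters are from RefSeq (GRCh38.p14). Python 3.11.15, numpy 2.4.6, pandas 2.3.3, scipy 1.17.1 and matplotlib 3.10.9 were used.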

Additional observations from a re-analysis of the deposited data

Results flagged for a closer look

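In lists paired by a shared tag in their peak names, treated minus untreated differences in 5 of the 7 measures compared had opposite signs. The number of peaks at the chromosome ends was higher in the treated list of each pair, by 6 in the first and 3 in the second, and the spacing share differed by -0.24 percentage points in the first and 0 in the second. The contrast between the pairs was not tested, since a pair has a single list of each group. The first pair is treated list 1 with untreated list 1, the second treated list 3 with untreated list 2. The share of the list at the chromosome ends differed by -1.07 percentage points in the first pair and 5.06 in the second. The median score percentile differed by 17.4 points in the first and -22.9 in the second. The median width differed by 73.5 bp in the first and -255 bp in the second, and the log2 ratio of that width to the width of the other peaks by 0.29 and -0.29. The share of peaks with a partner 1 unit away differed by -6.83 percentage points in the first pair and 2.14 in the second. Treated list 3 has 528 peaks in all and untreated list 2 has 2039, and the part of list length in these values was not tested.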

How the results depend on the processing

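Among 142 values from alternatives, 110 stayed as reported in direction or, for counts and folding lengths, in size, 26 changed sign and 6 counts moved by over 1.5 times. No p for treatment or for the ends could fall below 0.2 and 0.0625 in this design, so only directions are read. Leaving out 1 list moved the differences between treated and untreated lists to -1.09 to 1.99 points for the share of the list, -2.78 to 17.7 points for percentile, -140.5 to 62.0 bp for width, -0.089 to 0.20 for the log2 width ratio, -0.67 to 1.46 points for the spacing share and -7.78 to -0.085 points for the partner share. It moved the differences between ends to -0.068 to 4.54 percentile points, -2.88 to 48.6 bp and 1.61 to 2.66 points of spacing share. Regions in all lists were then 24 to 32, those in all treated and no untreated list 0 to 6 (1 without treated list 3), and those in all untreated and no treated list 0 to 4, since fewer lists define them. The folding length stayed at 3288 to 3296 bp at 4q and 3291 to 3304 bp at 10q. With the upper part of each list by score, regions in all 5 lists were 14 and the spacing share differed by -2.47 points. Taking the 528 highest-scoring peaks of each list gave 8 regions in all 5 lists, 2 in all treated and no untreated list, a log2 width ratio of -0.096, a spacing share of -10.5 and a partner share of 5.73 points for treatment, and -93.8 bp and -12.2 points of spacing share for the ends. The replicate block, over same-numbered lists, gave -1.09 points for the share of the list and 18.0 bp for width, and changed no other direction. The numbers mark no shared culture or day in the labels. Group medians gave -0.73 points for the share of the list. Peaks within the dense clusters only gave -0.49 points of spacing share for treatment and -15.8 bp for the ends. All pairs in place of neighbours gave -1.53 points of spacing share. Pairing by name tag gave -2.78 percentile points, a log2 width ratio of -0.00015 and -0.12 points of spacing share. These values equal those without treated list 2, and those of the replicate block equal those without treated list 3. Both are arithmetically the same comparison, so they repeat values already among the 142. Wider or narrower tolerance, peak starts, 50% overlap and merging within 500 bp kept every direction and left the counts within 1.5 times. The causes were not tested, except where fewer lists or peaks define a count.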
